A study of Rattus norvegicus with 8 samples.

Results

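The enzymes described here make or break down arginine, ornithine, creatine and the sulfur amino acids in rat kidney cortex. The set consisted of 10 genes: Oat, Nags, Ass1, Asl, Arg2, Gatm, Gamt, Cth, Cbs and Bhmt. A probe belonged to the set when the RefSeq accession given for it on the array mapped to one of these genes. This gave 11 probes out of 30367 non-control probes, and 10 genes out of the 14737 genes that could be named on the array. A single probe represented 9 of the enzymes, and Gatm had 2 probes. Each probe was well above background on 8 of 8 arrays. Where a gene had more than 1 probe, the probe of highest mean signal leads.

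Cortical slices were taken from the kidneys of 4 male and 4 female adult RCCHanTMWIST rats, an outbred Wistar strain. The animals received no treatment and carried no engineered allele, and their age is known only as adult. Total RNA of each rat was labelled with Cy3 and hybridised to its own one-colour Agilent array, so that n = 4 rats per sex throughout. All values below are the log2 of the background-subtracted signal minus the log2 of the 75th percentile of that array, so that 0 marks the 75th percentile, and every log2 fold-change is male minus female.

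Arginine is produced in the kidney for the rest of the body. Citrulline that arrives from the intestine is joined to aspartate by argininosuccinate synthase (Ass1), and argininosuccinate lyase (Asl) releases arginine, mainly in the proximal tubule. Arginine is then exported, hydrolysed to ornithine by arginase 2 (Arg2), or used by glycine amidinotransferase (Gatm) for the first step of creatine synthesis, which guanidinoacetate methyltransferase (Gamt) completes, mainly in the liver. Sulfur amino acids meet this route at methionine: betaine-homocysteine methyltransferase (Bhmt) remethylates homocysteine, whereas cystathionine beta-synthase (Cbs) and cystathionine gamma-lyase (Cth) convert it to cysteine. The gene symbol Oat stands here for ornithine aminotransferase, the mitochondrial enzyme that links ornithine to glutamate and proline, and not for the organic anion transporters.

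Oat, Nags and Cth were higher expressed in females, by 2.75-fold, 2.13-fold and 2.03-fold, and Gamt was higher expressed in males by 1.30-fold. These 4 of the 10 enzymes passed an adjusted p of 0.05 at their leading probe, against 8.06% of all 23425 tested probes and 9.2% of the leading probes of 11827 named genes. Of the 4, those higher in females numbered 3, against a background of 4.67% of tested probes, and the enzyme higher in males was 1, against 3.39%. All 3 enzymes higher in females also reached a log2 fold-change of at least 1 in size, which 1.89% of tested probes did in either direction and 1.09% in the female direction. None of the 10 did so in the male direction, where the background was 0.798%. The remaining 6 enzymes did not pass. Values of the 4 males and the 4 females did not overlap for 7 of the 10 enzymes, compared with 18.5% of tested probes. The median size of the log2 fold-change was 0.39 over the 10 enzymes and 0.15 over all tested probes, whose signed median was -0.04. The enzymes were chosen with earlier results of these data known, so these shares and medians describe them and do not test the pathway.

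The stretches of DNA just upstream of the 3 enzymes that differed most are shown because motifs of transcription factors were searched in them. Each runs 5′ to 3′ on the strand of its gene and ends at the base before the annotated start, as given by RefSeq for the assembly GRCr8. Capitals mark CCAAT, or its reverse complement, in Oat and Cth, and the reverse complement of AGGTCA in Nags. The Oat sequence is chr1:196797755-196798004 on the minus strand, the Nags sequence is chr10:87598266-87598515 on the plus strand, and the Cth sequence is chr2:249661067-249661316 on the minus strand.
Oat: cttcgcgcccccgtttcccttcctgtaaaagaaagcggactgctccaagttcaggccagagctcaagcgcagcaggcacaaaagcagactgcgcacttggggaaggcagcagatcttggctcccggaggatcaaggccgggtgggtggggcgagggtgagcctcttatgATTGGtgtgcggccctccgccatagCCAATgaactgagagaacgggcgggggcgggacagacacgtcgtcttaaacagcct
Nags: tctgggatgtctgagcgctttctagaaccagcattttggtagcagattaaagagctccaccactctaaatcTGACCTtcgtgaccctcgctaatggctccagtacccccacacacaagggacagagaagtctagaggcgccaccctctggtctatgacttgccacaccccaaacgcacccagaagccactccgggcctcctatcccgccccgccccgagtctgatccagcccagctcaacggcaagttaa
Cth: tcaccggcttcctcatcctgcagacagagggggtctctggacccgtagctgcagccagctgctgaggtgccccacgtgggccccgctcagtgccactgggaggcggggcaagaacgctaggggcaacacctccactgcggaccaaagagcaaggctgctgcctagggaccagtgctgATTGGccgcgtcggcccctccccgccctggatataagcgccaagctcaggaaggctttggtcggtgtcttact

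A 250-base upstream sequence was at hand for 9 of the 10 enzymes, the exception being Arg2, and motifs were searched on both strands. CCAAT, the letters of the CCAAT box, stood in the Oat window at positions -81 and -56 and in the Cth window at -73, counted from the start site, and it was present in 5 of the 9 enzymes and in 34% of 33469 windows of the same length. AGGTCA, which estrogen receptors and other nuclear receptors recognise, was found at -179 of Nags and also in Bhmt, and in 14.1% of all windows. The longer letters of an estrogen response element (GGTCA and TGACC with 3 bases between them) and an androgen response element (GGTACA and TGTTCT with 3 bases between them) were in none of the 9 windows, and in 0.0239% and 0.00299% of all windows. The letters TTCCTAGAA and TTCCTCGAA, taken for BCL6, and TTCNNNGAA, taken for STAT5 and overlapping the former, were likewise in none of the 9, compared with 0.323%, 0.0538% and 7.67% of all windows. TATAAA, the letters of the TATA box, was in Ass1 at -60 on the minus strand and in Bhmt at -29 on the plus strand. These letters were in 12.9% of windows. The upstream sequence of Oat held 60.8% G and C bases, that of Nags 56.4% and that of Cth 64.8%, against a median of 51.2% over all windows.

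Ornithine aminotransferase showed the largest difference among the 10 enzymes. The 4 females read 5.70, 5.80, 5.30 and 4.96 for Oat on the log2 scale relative to the array's 75th percentile, and the 4 males read 4.04, 3.90, 3.99 and 3.98. The males lay within a narrow range and every female lay above it, whereas the females spread widely, with female 4 the nearest to the males. Males averaged 3.98 ± 0.058 and females 5.44 ± 0.388 (SD, n = 4 rats each), a log2 fold-change of -1.46 with a standard error of 0.175 and a 95% confidence interval of -1.86 to -1.06. The difference passed in limma's moderated test with Benjamini-Hochberg adjustment over all tested probes (adjusted p = 0.00277). An exact two-sided permutation test over the rats gave p = 0.0286, the smallest that 4 against 4 allows. Among the 23425 tested probes, 301 had a larger log2 fold-change in size than Oat.

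**Figure D1:**
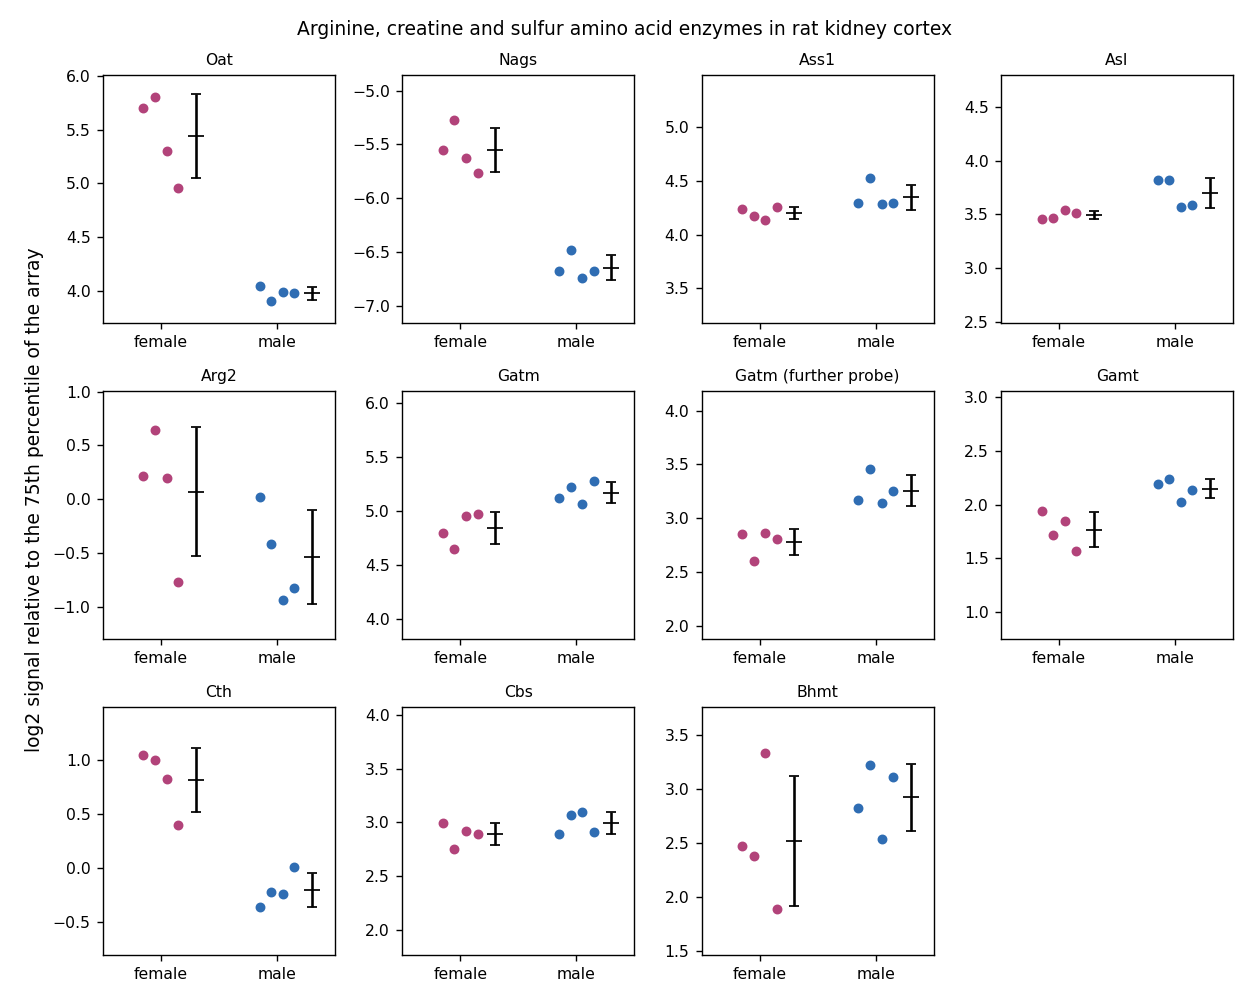
Log2 signal relative to the 75th percentile of the array (y axis) for each of the 11 probes, with 1 point per rat, females left and males right, in replicate order, and the black mark and bar giving the mean and SD of each sex (n = 4). Every panel spans the same height on the log2 scale, and the sexes are fully apart for Oat, Nags and Cth, with females above, while the points of Arg2, Cbs and Bhmt overlap.

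N-acetylglutamate synthase (Nags) makes the activator that carbamoyl phosphate synthetase needs to feed the urea cycle. Its levels were -5.55, -5.27, -5.62 and -5.76 in females and -6.67, -6.48, -6.74 and -6.67 in males. Every female was higher than every male. Males averaged -6.64 ± 0.113 and females -5.55 ± 0.206 (SD, n = 4 rats each), and the log2 fold-change was -1.09 with a standard error of 0.114, a 95% confidence interval of -1.35 to -0.83 and a limma adjusted p of 0.00164 (exact permutation p = 0.0286).

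The Nags probe was dim. Before scaling, its signal was 120, 130.0, 113 and 109.6 in females and 64.2, 63.7, 60.0 and 63.1 in males. The lowest signal of any probe called well above background ran from 14.1 to 23.2 across the arrays. The Nags signal was 23.7 to 35.0 times the median of the negative control spots in females and 12.2 to 16.8 times in males. The brightest negative control spot read above Nags on every array except that of female 3, where it read 102.7 against 113. Normexp correction with an offset of 50, an amount close to the male signal itself, gave a log2 fold-change of -0.67 for Nags, which still passed the adjusted p and no longer reached a change of 1. Carbamoyl phosphate synthetase (Cps1), the enzyme that the product of Nags activates, was not well above background on enough arrays to be tested.

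The enzymes that form arginine from citrulline differed little. Ass1 read 4.24, 4.17, 4.14 and 4.25 in females and 4.30, 4.52, 4.28 and 4.29 in males. Asl read 3.46, 3.46, 3.54 and 3.52 in females and 3.82, 3.82, 3.57 and 3.59 in males. For both genes the lowest male was just above the highest female, although neither difference passed. The log2 fold-change was 0.15 for Ass1 (95% confidence interval -0.03 to 0.32, limma adjusted p = 0.276, exact permutation p = 0.0286) and 0.20 for Asl (95% confidence interval 0.02 to 0.39, limma adjusted p = 0.165, exact permutation p = 0.0286). The upper ends of these intervals were well under a log2 fold-change of 1.

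Arg2, the mitochondrial arginase of the kidney, supplies the ornithine that Oat consumes. Its levels were 0.21, 0.64, 0.20 and -0.77 in females and 0.02, -0.42, -0.94 and -0.83 in males. The sexes overlapped, since female 4 lay among the lower males and male 1 approached the females. The log2 fold-change of -0.61 had a standard error of 0.319 and a 95% confidence interval of -1.34 to 0.12, and it did not pass (limma adjusted p = 0.271, exact permutation p = 0.143). The interval includes 0 and also changes above 2-fold, so that a sex difference of Arg2 was neither shown nor bounded tightly with 4 rats per sex.

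**Figure D2:**
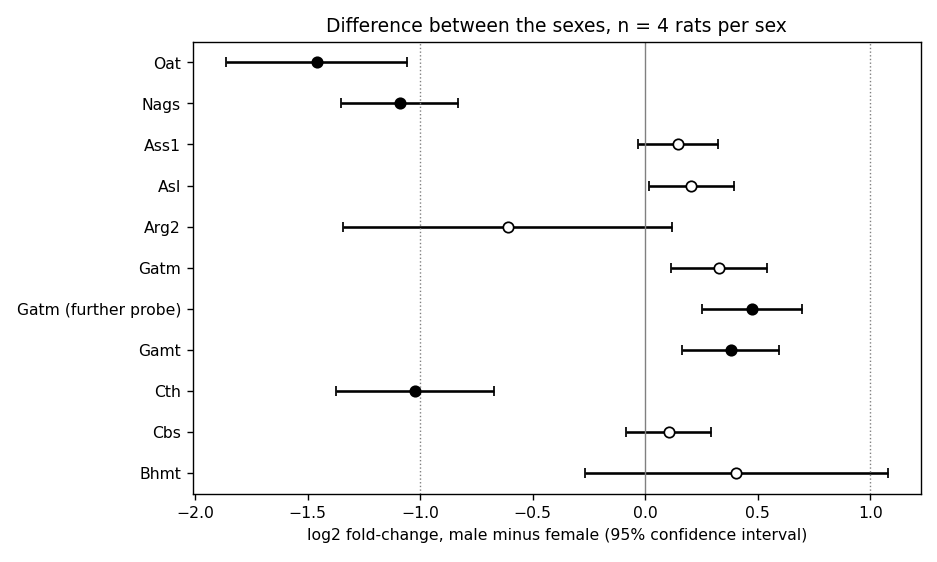
Log2 fold-change, male minus female, with its 95% confidence interval for each of the 11 probes (x axis), where filled points have an adjusted p below 0.05 and the dotted lines stand at -1 and 1. Oat, Nags and Cth lie to the left at -1.46, -1.09 and -1.02, Gamt and the further Gatm probe lie to the right at 0.38 and 0.47, and the intervals of Arg2 and Bhmt are the widest.

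Of the 2 enzymes of creatine synthesis, Gamt was higher in males and Gatm depended on the probe. Gamt read 1.94, 1.72, 1.84 and 1.57 in females and 2.19, 2.23, 2.03 and 2.14 in males. All males were above all females, by a narrow margin between male 3 and female 1. Males averaged 2.15 ± 0.0889 and females 1.77 ± 0.159 (SD, n = 4 rats each), a log2 fold-change of 0.38 with a standard error of 0.0944 and a 95% confidence interval of 0.16 to 0.60 (limma adjusted p = 0.0469, exact permutation p = 0.0286). This call lay close to the threshold: it was kept under 9 of 19 alternative settings and lost under 10, where the adjusted p reached at most 0.114, while the log2 fold-change stayed between 0.31 and 0.44.

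Gatm, which performs the committed step in the tubule, was measured by 2 probes that pointed the same way and fell on different sides of the threshold. The leading probe read 4.79, 4.65, 4.96 and 4.97 in females and 5.12, 5.22, 5.07 and 5.27 in males, and the further probe read 2.85, 2.60, 2.87 and 2.80 in females and 3.17, 3.46, 3.14 and 3.26 in males. On each probe every male exceeded every female. The log2 fold-change was 0.33 ± 0.0936 (SE) at the leading probe, which did not pass (limma adjusted p = 0.0706), and 0.47 ± 0.0964 (SE) at the further probe, which did (limma adjusted p = 0.0238). The sex difference of the further probe exceeded that of the leading probe by 0.15, and this did not pass an exact permutation test (p = 0.0857). The leading probe passed under 5 of 19 alternative settings, including quantile normalization (adjusted p = 0.0463) and the mean of both probes (adjusted p = 0.0340), and the further probe failed under 4 of 18.

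Cystathionine gamma-lyase forms cysteine from cystathionine and can release hydrogen sulfide. Cth read 1.05, 1.00, 0.82 and 0.39 in females and -0.37, -0.22, -0.24 and 0.01 in males. The groups did not overlap, and female 4 and male 4 came closest to each other. Males averaged -0.21 ± 0.157 and females 0.82 ± 0.299 (SD, n = 4 rats each), a log2 fold-change of -1.02 with a standard error of 0.153 and a 95% confidence interval of -1.37 to -0.67 (limma adjusted p = 0.00717, exact permutation p = 0.0286).

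The preceding enzyme, Cbs, read 2.99, 2.75, 2.92 and 2.89 in females and 2.89, 3.07, 3.09 and 2.91 in males. Males and females overlapped. Its log2 fold-change was 0.10 with a 95% confidence interval of -0.08 to 0.29 (limma adjusted p = 0.477, exact permutation p = 0.229), an interval that leaves out changes of the size seen for Cth. The fold-change ran from 0.06 to 0.14 on the log2 scale when 1 rat was left out.

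Bhmt, which draws homocysteine back to methionine with betaine as methyl donor, varied widely among females, with an SD of 0.603 (n = 4). Its levels were 2.47, 2.38, 3.34 and 1.89 in females and 2.82, 3.23, 2.53 and 3.11 in males. Female 3 was the highest of all 8 rats and female 4 the lowest. The log2 fold-change of 0.40 had a standard error of 0.293 and a 95% confidence interval of -0.27 to 1.08, and it did not pass (limma adjusted p = 0.435, exact permutation p = 0.286). It was 0.68 without female 3 (limma adjusted p = 0.115) and 0.19 without female 4 (limma adjusted p = 0.700).

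Neighbouring steps were set against each other within each rat, as the log2 ratio of 2 probes, for 4 pairs. The sex difference of a ratio is the difference between the 2 log2 fold-changes given above, so the pairs restate those results. The sex difference of the Cth to Cbs ratio was -1.13 and that of the Oat to Arg2 ratio was -0.85, and in both cases every male lay below every female. Each gave an exact permutation p of 0.0286, the smallest possible, and an adjusted p of 0.0571 over the 4 pairs, so that neither passed after adjustment, which with this smallest p would have needed at least 3 of the 4 pairs to reach it. The Gatm to Gamt ratio differed by -0.05 (exact permutation p = 0.771, adjusted p = 0.771) and the Ass1 to Asl ratio by -0.06 (exact permutation p = 0.486, adjusted p = 0.648).

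**Figure D3:**
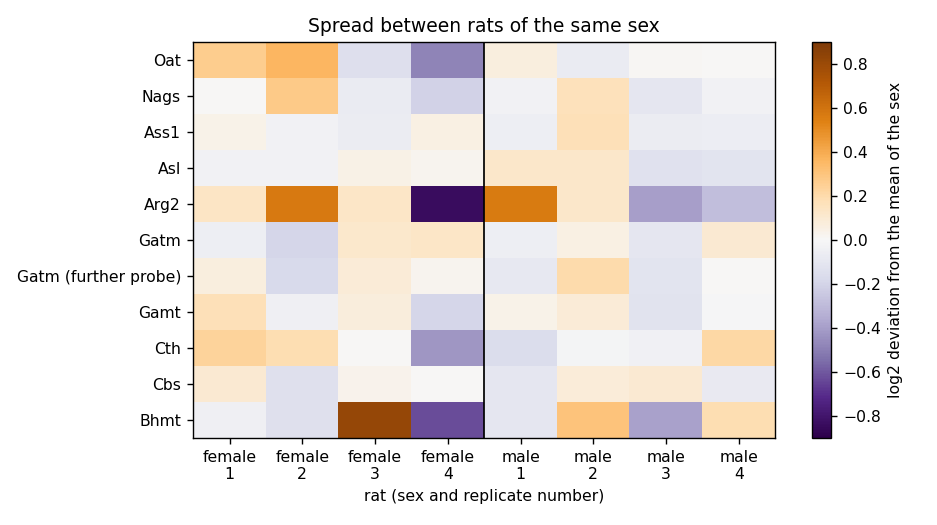
Deviation of each rat (columns) from the mean of its sex on the log2 scale (colour, orange above and purple below) for the 11 probes (rows). Arg2 and Bhmt carry the strongest colours, female 4 is purple for Oat, Arg2, Cth and Bhmt, and Oat is nearly white in all males.

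Within a sex, the lowest values did not fall evenly on the rats. Among the 11 probes, female 4 had the lowest female value in 6 and female 2 in 3, while male 3 had the lowest male value in 8. Without female 4, the log2 fold-change of Oat was -1.62 and that of Cth was -1.16, both larger in size than with all rats. All arrays were on 1 slide with 1 scan, and each of its 2 rows held 2 rats of each sex. Within the first and the second row the sex difference was -1.11 and -1.81 for Oat, -0.98 and -1.20 for Nags, and -0.79 and -1.26 for Cth. For Gamt it was 0.46 and 0.30, and for Arg2 it was -0.12 and -1.11.

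**Figure D4:**
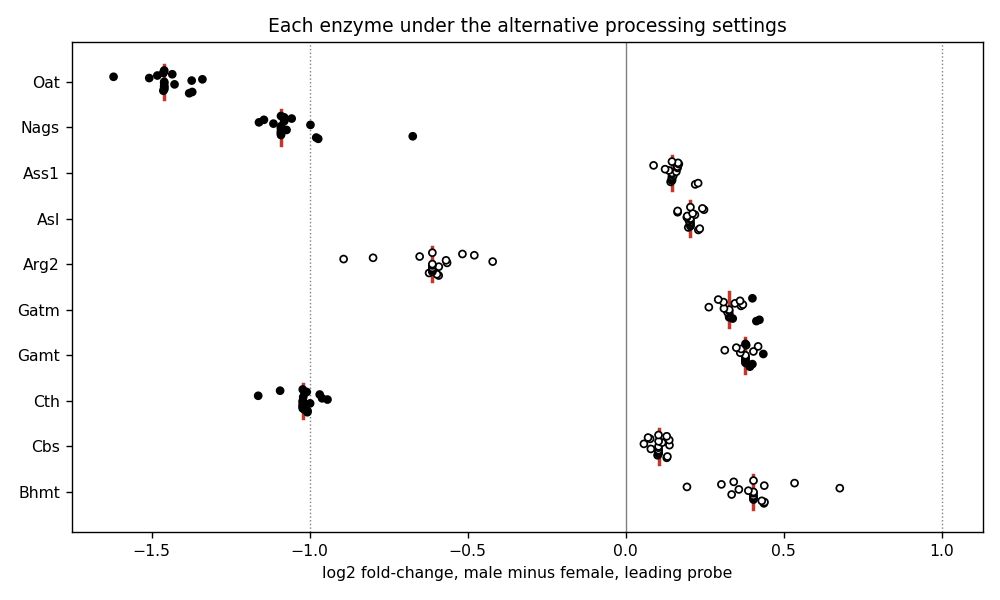
Log2 fold-change, male minus female, of the leading probe of each enzyme (x axis) under 19 alternative settings, where dots are filled at an adjusted p below 0.05 and the red line is the reported value. No enzyme crosses 0, Oat, Nags and Cth are filled under every setting shown, and Gatm and Gamt have dots of both kinds.

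Other genes of the same pathways were examined as 5 lists, also chosen with earlier results of these data known. They held 60 genes, of which 57 had a named probe and 54 could be tested. Of these, 7 passed the adjusted p, 13.0% of those tested, near the 9.2% of leading probes over all named genes, with 4 higher in males and 3 higher in females. None reached a log2 fold-change of 1 in size. Their log2 fold-changes ran from -0.81 to 0.70 with a median of -0.04, equal at this rounding to the median of all tested probes.

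Among 8 tested genes of the urea cycle and arginine metabolism, 3 passed, where the leading probes of all named genes passed in 9.2%, and 2 of these 3, Ddah2 and Otc, lost the call under 10 and 11 of 18 alternative settings. Agxt2, which clears dimethylarginines, read 4.44, 4.47, 4.42 and 4.60 in females and 4.90, 4.97, 4.87 and 4.87 in males, with a log2 fold-change of 0.42 (limma adjusted p = 0.00923). Ddah2, which also acts on dimethylarginines, was higher in females at -0.30 (limma adjusted p = 0.0361), and Otc, which joins ornithine to carbamoyl phosphate, was at 0.46 (limma adjusted p = 0.0322) with a mean signal of only 75.3 and values from 0.18 to 0.57 over those settings (limma adjusted p up to 0.241). Arg1, the cytosolic arginase, was picked after its value was seen: it had a log2 fold-change of -0.77 and did not pass (limma adjusted p = 0.0707). Cps1, Slc25a15 and Nos1 were not tested because too few arrays were above background.

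The lists that flank Oat, Gatm and Cth held 1 call among them, and the share over the leading probes of all named genes was 9.2%. In the list for ornithine, proline and polyamines, where Oat acts, 1 of 15 passed, Azin1, an inhibitor of antizyme, at 0.37 (limma adjusted p = 0.0238). In the creatine list 0 of 5 passed in limma, and 0 of 5 had an unadjusted p below 0.05. The share of all named genes at this unadjusted level was not counted, and it is at least 9.2%. In the list for cysteine, taurine and sulfide, downstream of Cth, 0 of 12 passed in limma and 3 had an unadjusted p below 0.05. Those were Sqor, Gclm and Csad, all picked after their values were seen. Sqor, which oxidises sulfide, was at -0.81 (limma adjusted p = 0.0723). Gclm, a subunit of glutamate-cysteine ligase in glutathione synthesis, was at -0.77 (limma adjusted p = 0.126). Csad, of taurine synthesis, was at 0.29 (limma adjusted p = 0.0825).

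The methionine and betaine list, around Bhmt and Cbs, had 3 of 14 genes passing, against 9.2% of the leading probes of all named genes. Gnmt, the glycine methyltransferase that uses up S-adenosylmethionine, read 2.34, 2.24, 2.37 and 2.19 in females and 1.60, 1.93, 1.81 and 1.67 in males, a log2 fold-change of -0.53 (limma adjusted p = 0.0109). Ahcyl2, a relative of adenosylhomocysteinase, read 3.95, 3.84, 3.93 and 3.76 in females and 4.73, 4.75, 4.24 and 4.54 in males, a log2 fold-change of 0.70 (limma adjusted p = 0.0114). In both genes the sexes did not overlap, in opposite directions. Sardh, which oxidises the sarcosine that Gnmt forms, was at -0.57 (limma adjusted p = 0.0404). Over 18 alternative settings Agxt2, Gnmt and Ahcyl2 passed under 18, Azin1 under 12, Ddah2 and Sardh under 8 each and Otc under 7.

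**Figure D5:**
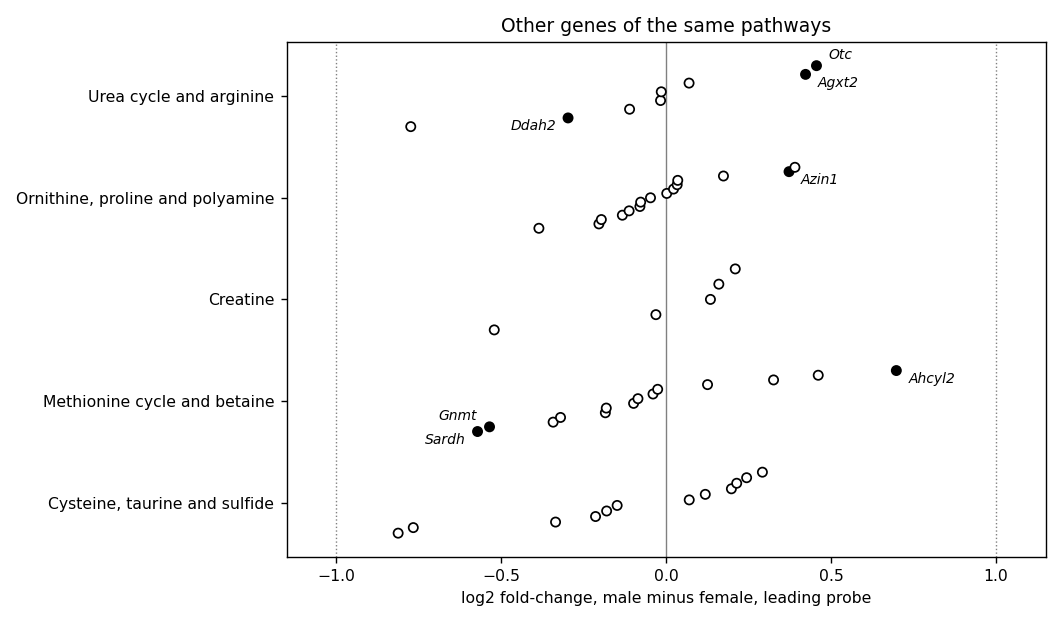
Log2 fold-change, male minus female, of the leading probe of the 54 tested genes in 5 pathway lists (x axis), with 1 point per gene, filled and named where the adjusted p was below 0.05, and dotted lines at -1 and 1. The 7 filled points lie on both sides of 0 and no point reaches the dotted lines.

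The genes whose profile over the 8 arrays was most like that of an enzyme were sought among 13994 named, tested probes, by the root mean square difference of log2 levels after each probe's own mean was subtracted. Nearest to Oat were Cryab, a small heat shock protein (0.116), Gng13, a G protein gamma subunit (0.138), and Tle2, a transcriptional corepressor (0.143). Nearest to Nags were Sod3, the extracellular superoxide dismutase (0.129), Lifr, the leukemia inhibitory factor receptor (0.138), and Nfatc4, a calcineurin-regulated transcription factor (0.142). Nearest to Cth were Zmynd10 (0.0869), Cklf, a chemokine-like factor (0.0886), and again Lifr (0.120). These profiles share the sex difference itself, so the likeness is a description over 8 arrays.

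In bulk tissue, fewer cells of a type and less RNA per cell cannot be told apart. Markers of cortex were present, with 6 of 6 markers of the first and second proximal tubule segments, 5 of 5 of the third segment and 5 of 5 of the glomerulus tested. Adjusted p was below 0.05 for 1 of 6, 0 of 5 and 1 of 5 of these, and for 1 of 3 of the thick ascending limb. Each was higher in females, and 9.2% of the leading probes of all named genes passed in either direction. At an unadjusted p below 0.05 there were 2 of 6 markers of the first and second segments and 2 of 5 of the third segment. There were also 3 of 3 of the thick ascending limb and 1 of 5 of the glomerulus. The share of all named genes at this unadjusted level was not counted, and it is at least 9.2%. For each list the marker levels were summed before log2 was taken, so that the brightest markers weigh most. The log2 of this sum ran from 6.48 to 6.67 in males and from 6.68 to 7.02 in females for the third segment. In the same order it was 6.90 to 6.95 and 6.97 to 7.09 for the first and second segments. It was 5.57 to 5.79 and 5.85 to 6.03 for the thick ascending limb, and 3.40 to 3.46 and 3.61 to 3.70 for the glomerulus. Female sums were higher in these 4 lists, by 0.10 to 0.32, without overlap. Of single tested probes, 18.5% did not overlap between the sexes. In the collecting duct list female sums were higher by 0.25 with overlap of the sexes (exact permutation p = 0.2). The distal convoluted tubule list, with 1 marker tested, went the other way, higher in males by 0.18 (exact permutation p = 0.371). Single markers within a list differed. In the third segment Slc7a13 had a log2 fold-change of -0.90, close to that of Cth (95% confidence interval -1.46 to -0.33, limma adjusted p = 0.0639). The others there, Slc5a1, Slc3a1, Atp11a and Gpx3, were at -0.42, -0.27, -0.06 and -0.02. Of the first and second segments, Cubn was at -0.59 and alone passed (limma adjusted p = 0.00452). Slc5a2, Slc34a1 and Lrp2 were at -0.13, -0.08 and -0.01. Slc5a12 and Slc4a4 were at 0.25 and 0.18 (limma adjusted p = 0.104 and 0.306). The part of these cell types in the differences of Oat, Nags and Cth was not tested. Of the liver list, 2 of 4 tested genes passed, against 9.2% of the leading probes of all named genes. These were Ttr at -5.53 and Fgb at -1.35, both higher in females. For the liver list the log2 of the summed levels was -2.84 to -2.45 in males and -1.03 to -0.10 in females. Albumin (Alb) averaged -7.03 in females and -6.50 in males at a mean signal of 76.1, and did not pass (limma adjusted p = 0.704). Apoa2, at 0.0005, did not pass either, and Tat was not tested. Markers of the distal convoluted tubule (0 of 1), collecting duct (0 of 5), adrenal gland (0 of 1), adipose tissue (0 of 3) and blood (0 of 2) did not pass in limma, with an unadjusted p below 0.05 for 2 of the collecting duct and for none of the others, and 3 of 4 adrenal markers, among them Star, were too dim to test.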

How the data were processed

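Cortical kidney RNA of 4 male and 4 female rats was measured on 8 one-colour arrays, and sex and replicate were taken from the sample labels. The authors deposited spot intensity values from Feature Extraction 10.7.3.1, with background already subtracted in the processed signal, and a table of log2 values. The log2 table of the authors ranked probes exactly as the signal did on each array (Spearman correlation 1) and had a median of 8.97 in each, so it was used as an alternative. Its results were near those of quantile normalization, with 442 and 444 probes past both thresholds, so these alternatives largely repeat each other. The submitters' processing notes name limma 3.8.2. Probe positions in the files refer to an older rat build, so gene positions are not printed.

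For this report, spots marked as outliers were left out, spots of a probe were averaged, and log2 of the processed signal minus the log2 75th percentile of the array was used. A probe counted as above background on an array if most of its spots were, and was tested if this held on 4 or more of the 8 arrays. Males were compared with females by lmFit and eBayes in limma 3.58.1 (R 4.3.3), with Benjamini-Hochberg adjustment over 23425 probes, calls at an adjusted p below 0.05, and a log2 fold-change of at least 1 where a change in size is named. Single values were also tested by exact two-sided permutation over 70 assignments. Between 73.8% and 79.1% of probes were well above background per array, no spot was saturated, and 4 arrays per sex limit the precision. P-values set the difference of the sexes against the spread between these rats, and limma moderates this spread over all tested probes.

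Probes were named through RefSeq accessions, giving 17514 named probes. The members and lists were chosen with earlier results of these data known. All members are named. From each pathway list, up to 5 genes past the adjusted p with the largest change are named, and for each member past both thresholds the 3 genes of nearest profile. The alternatives were quantile normalization, the authors' log2 values, normexp correction with an offset of 50 (on median signals, the mean signal not being used here), the background filter, the handling of outlier spots, an intensity trend, array weights, the replicate number or slide row as a block, the mean of all probes of a gene, and leaving out each rat.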

Additional observations from a re-analysis of the deposited data

Results flagged for a closer look

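The Ass1 level of male 2, at 4.52 on the log2 scale relative to the 75th percentile, stood apart from the other males, which lay between 4.28 and 4.30. It was the 1 outlying value by Dixon's test among 22 groups of 4 values, where chance alone gives about 1.1. Without male 2 the log2 fold-change of Ass1 was 0.09 and did not pass (limma adjusted p = 0.489), as with all rats.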

How the results depend on the processing

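The direction of all 10 enzymes held under each of the 19 alternatives. Several of these gave the reported log2 fold-change of Oat, Nags and Cth unchanged, so direction and size were not tried there. They were the background filter, the outlier spots, the intensity trend, the blocks and the mean of all probes of a gene. Oat kept an adjusted p below 0.05 and a log2 fold-change past 1 in size under all 19 (-1.62 to -1.34). Nags and Cth kept the adjusted p under all 19, and each reached a change of 1 under 15, a count that includes the unchanged settings. Nags missed it under quantile normalization (-0.97), the authors' log2 values (-0.98), normexp correction (-0.67) and without female 2 (-0.997), and Cth missed it with array weights (-0.999) and without female 1 (-0.94), female 2 (-0.96) or male 1 (-0.97). The number of enzymes past the adjusted p was 3 to 5, and the number past both thresholds was 1 to 3 when 1 rat was left out, with 1 left without female 2. The number of pathway partners past the adjusted p, 7 as reported, was 10 with normexp correction, 4 without a background filter, where more probes were tested, and 3 to 6 when 1 rat was left out: it was 4 without female 1 and 3 without female 3, male 2, male 3 or male 4. The cause of these shifts was not tested.

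Same-numbered males and females correlated by 0.126, 0.0429, -0.00831 and 0.116 in their deviations from the mean of their sex, and not every rat correlated best with its own number, so the numbers were not taken as pairs. With the replicate number as a block, 372 probes instead of 443 passed both thresholds and 1030 instead of 1889 passed the adjusted p. Under this block 3 enzymes passed the adjusted p, 3 passed both thresholds and 3 partners passed, Gamt being lost (0.38, limma adjusted p = 0.0939) and the further Gatm probe too (limma adjusted p = 0.0913).

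Over all probes, the 256 past both thresholds in the female and 187 in the male direction became 221 and 223 under quantile normalization and 221 and 221 with the authors' log2 values. In both directions together, 298 passed both thresholds with normexp correction and 355 to 495 when 1 rat was left out. Those past the adjusted p alone numbered 1195 without a filter and 1012 to 1544 when 1 rat was left out. Besides the block, Gamt lost its call without a filter (limma adjusted p = 0.0833), with the slide row as a block (limma adjusted p = 0.0624) and when any of 7 rats was left out. Low signal limits Nags and Otc.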
